A study of Mus musculus with 15 samples.

Results

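Macrophages of the E14.5 mouse heart were taken from a Drop-seq table of whole hearts as the barcodes that carried complement C1q transcripts. They were chosen by measured values: a barcode needed at least 300 detected genes, under 2% of its unique molecular identifiers (UMIs, each counting 1 captured transcript) from 7 cardiomyocyte genes (Actc1, Tnnt2, Tnni1, Tnnc1, Myl4, Myl7 and Ttn), and at least 3 UMIs of C1qa, C1qb and C1qc together. The rule found 755 barcodes among the 50899 with 300 genes, of 55152 deposited. Of these, 330 came from 7 Adamts19 wild-type (WT) libraries and 425 from 8 libraries of homozygous Adamts19 knockouts (KO), with 36 to 85 in a library.

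All embryos were on the C57BL6/N background and were not otherwise treated, as far as the labels say. Knockouts of the allele tm4a make up KO replicate 1, of litter 5, and replicates 2 to 4, of litter 6. Those of tm4b make up KO replicates 5 to 8, of litter 7. The WT litters are number 1 (replicates 1 and 2), 2 (replicates 3 and 4), 3 (replicate 5) and 4 (replicates 6 and 7). No litter holds both genotypes, so litter and genotype cannot be told apart, and the 8 KO libraries share 1 flow cell with WT replicate 5 while the other WT libraries ran on other flow cells. The alleles are not restricted to a cell type by the labels, and how many embryos went into a library is not stated in these sources. The spread between libraries may in part be technical.

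Macrophages enter the heart before birth from the yolk sac and later the fetal liver. They are kept alive by the CSF1 receptor, engulf dying cells, and secrete C1q, which tags debris for clearance. In the adult heart, long-lived resident macrophages are known for LYVE1, TIMD4, FOLR2 and MRC1, while monocyte-derived cells are known for CCR2 and MHC class II. Adamts19 encodes a secreted metalloprotease of the valve mesenchyme. It was read in 3 of the 755 macrophages (0.397%, Wilson 95% interval 0.135 to 1.16%) against 3.44% of the other 50144 barcodes. The LacZ feature of the table was read in 2 macrophages. As a check of the labels, Adamts19 in the other barcodes was at 15.6 to 50.5 CPM (UMIs scaled to a total of 1000000 per library) in the WT and 5.36 to 8.67 in the KO libraries, and LacZ at 0 in every WT and 5.51 to 92.6 in the KO libraries.

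The deposited libraries held 5477109 to 11340443 UMIs, and the macrophages 64065 to 177434 per library, 1563634 in all. The median macrophage had 1637 UMIs and 984 genes, and the median other barcode 1639 UMIs. Macrophages were deeper in WT replicates 3 and 4 and in KO replicate 8 (medians of 3397, 2998 and 2766 UMIs) than in the other 12 libraries. Of the barcodes with 300 genes, 151 share a barcode sequence with one in another library, and 2 of these are macrophages.

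The upstream sequences of 4 genes are shown because they belong to the genes the description turns on: C1qb and C1qc of the rule, the chemokine gene Cxcl2, which had the largest ratio to the rest of the heart among genes outside the rule that were read in at least 20% of macrophages, and F13a1, which led the macrophages with Lyve1 transcripts. C1qa (ENSMUSG00000036887), C1qc and C1qb lie side by side on the minus strand of chromosome 4, within 136880129 to 136898803 of GRCm38 (mm10). The sequences are from RefSeq on GRCm38.p6, run 5′ to 3′ on the gene's strand up to its start, and exclude bases inside the GENCODE M21 gene. They cover chr4:136886201-136886450 for C1qb, chr4:136893066-136893164 for C1qc, chr5:90903649-90903870 for Cxcl2 and chr13:37050245-37050494 for F13a1. Capitals mark matches, on either strand, to GAGGAAGT (a PU.1-type motif, ACTTCCTC on the other strand), the kB-type motif or TGCTGAC (a MAF half-site).
C1qb: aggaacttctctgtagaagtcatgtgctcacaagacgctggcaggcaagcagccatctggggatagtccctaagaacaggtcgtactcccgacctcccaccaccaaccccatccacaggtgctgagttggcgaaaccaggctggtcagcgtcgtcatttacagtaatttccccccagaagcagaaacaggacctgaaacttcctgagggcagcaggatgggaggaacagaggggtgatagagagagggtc
C1qc: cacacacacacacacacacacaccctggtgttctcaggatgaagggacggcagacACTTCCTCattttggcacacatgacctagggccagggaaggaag
Cxcl2: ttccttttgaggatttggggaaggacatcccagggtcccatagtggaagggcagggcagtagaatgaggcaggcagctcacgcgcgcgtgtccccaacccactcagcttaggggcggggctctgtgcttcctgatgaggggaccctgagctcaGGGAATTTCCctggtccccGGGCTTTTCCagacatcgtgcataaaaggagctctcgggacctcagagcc
F13a1: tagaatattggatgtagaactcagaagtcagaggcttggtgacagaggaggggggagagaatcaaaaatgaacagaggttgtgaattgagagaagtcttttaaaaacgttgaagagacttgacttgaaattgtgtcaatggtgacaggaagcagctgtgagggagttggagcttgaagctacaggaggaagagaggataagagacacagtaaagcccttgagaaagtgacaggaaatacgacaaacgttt
C1qc held 1 PU.1-type match and Cxcl2 a pair of kB-type matches close to each other, and the windows of C1qb and F13a1 held none. Over the 250 bases before the start of 27025 genes, 2.44% held the PU.1-type, 1.40% the kB-type and 3.72% the MAF match. Of the 30 leading macrophage genes described next, 22 had a sequence, and 1 (Bcl2a1b), 2 (Cxcl2 and C3ar1) and 0 of these held them. A match is a run of letters and not a bound site.

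The barcodes carried the transcripts of macrophages. The C1q chains are part of the rule and are given as a description. The median barcode had 11 C1q UMIs (quartiles 6 and 20), and 76.0% had all 3 chains. C1qb lay between 2779 and 4688 CPM of the macrophages' sum in the 15 libraries, C1qa between 1248 and 2694, and C1qc between 1184 and 2482. At the edge of the rule, 56 barcodes with 2 C1q UMIs and 51 with 3 were alike in depth (medians of 624 and 603 UMIs). Of them, 48.2% and 51.0% had a Csf1r UMI, and 82.1% and 90.2% had at least 5 UMIs of 23 macrophage identity genes. A further 36 barcodes had the C1q UMIs but 2% or more cardiomyocyte UMIs and were left out.

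Csf1r, the receptor for the macrophage growth factors, was read in 78.5% of macrophages, 0.945% of other barcodes and 0.215% of the 1857 barcodes with 10% or more cardiomyocyte UMIs. Its level was 907 to 1795 CPM across libraries, with a median of 1179. All 23 identity genes were at least 2-fold higher than in the other barcodes, on the log2 scale after 20 CPM was added to both sides. They include the signalling adaptors Fcer1g and Tyrobp (2531 and 2216 CPM in the macrophages' pooled UMIs, 12.2 and 10.2 in the others), the transcription factor Spi1 that specifies myeloid cells (358 and 1.25) and the debris receptor Trem2 (565 and 1.09). These values are descriptions: no test was made of macrophages against the rest for single genes, because the choice of barcodes by C1q brings the other macrophage genes with it. Over all 16809 genes, 1002 (5.96%) were at least 2-fold higher in macrophages and 1273 (7.57%) at least 2-fold lower. Among the 1456 genes outside the rule that were read in at least 20% of macrophages, 499 were at least 2-fold higher.

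Most genes of other leukocytes were at or near 0. The neutrophil genes S100a9, Mpo, Elane and Camp and the lymphoid genes Cd79a and Trbc2 were read in 0 of 755 macrophages, which allows a share of up to 0.397%. The mast cell genes Cpa3 and Hdc were read in 0.132% and 0.397%. S100a8, a neutrophil gene, had 8 UMIs, all in 1 macrophage (0.132%). Kit, of mast cells, was read in 1.19% and Il7r, of lymphocytes, in 0.795%. Cd79b, a B-cell receptor component, was read in 8.74%, and Batf3, a transcription factor gene of dendritic cells, in 3.84% (1.24% of other barcodes). The 4 dendritic genes in the table summed to 27.5 CPM in the pooled macrophages and 13.1 CPM in the pooled others, and Clec9a and Ccr7 among them were each read in 0.265%. Transcripts of the heart's other cells were present too. The 10 endothelial genes summed to 89.0 to 626 CPM by library (939 CPM in the pooled other barcodes) and the 10 mesenchymal genes to 161 to 2956 CPM (5817 CPM). The 17 cardiomyocyte genes summed to 1726 to 5720 CPM. In other barcodes with under 2% cardiomyocyte UMIs and 0 C1q UMIs they summed to 2005 to 6340 CPM. The 10 erythroid genes summed to 355 to 9629 CPM (8666 CPM in the pooled others), the widest range, as a ratio, of the 4 sums. Only 240 of the 755 macrophages held under 2 UMIs of erythroid, endothelial, mesenchymal, epicardial and mural genes together.

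Of the 30 genes that stood highest above the rest of the heart, 5 were on the chemokine and cytokine list and 8 on the macrophage identity list. Cxcl2, a chemokine that draws neutrophils, had 3827 to 7896 CPM in macrophages (median 5783) and 27.0 CPM in the pooled other barcodes, and was read in 84.2% of macrophages and 2.41% of others. Its mean log2 ratio over libraries was 7.04 (SD 0.44, n = 15). The lowest of the 15 macrophage values lay above the highest of the other barcodes, 106 CPM. Ccl4 and Ccl3, which draw monocytes, followed with log2 ratios of 6.64 and 6.26 and with 2873 and 2184 pooled CPM. The cytokine genes Il1b, Il1a and Tnf were also among the leading 30 (log2 ratios of 5.76, 5.21 and 4.89) and were read in 47.8%, 46.8% and 50.2% of macrophages. So were Nlrp3, the inflammasome sensor (5.15), and Cd14, a co-receptor for bacterial lipopolysaccharide (5.94). Of 20 chemokine and cytokine genes in the table, 18 were at least 2-fold higher in macrophages and 1 was lower: Cxcl12, a stromal chemokine, with 30.1 CPM against 189. Over all 16809 genes the shares were 5.96% and 7.57%. Among the 1456 genes read in at least 20% of macrophages, 499 were higher.

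Further genes of the 30 have other roles. Ctss, a lysosomal protease, had a log2 ratio of 6.54, and Aif1, an actin-binding protein of macrophages, 5.60. Mrc1, the mannose receptor, had 5.48, Cx3cr1, the fractalkine receptor, 5.09, and Fcrls, an Fc receptor-like gene of microglia, 5.09. Apoe, the lipid carrier, had 5.16, with 12609 to 32820 CPM by library against 572 in the pooled others, and was read in 98.8% of macrophages and 35.2% of other barcodes. The other genes of the 30, in order of their ratio, were Cd83, Slfn2, Laptm5, Bcl2a1b, Plek, AI607873, Ly86, C3ar1, Lilrb4, Srgn, Lyz2, Cd52 and Cybb, with ratios from 6.09 to 5.01. Each of the 30 was higher in macrophages in 15 of 15 libraries. AI607873 and C3ar1 varied least between libraries (SD 0.18 and 0.16), and Il1b most (SD 0.70).

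**Figure D1:**
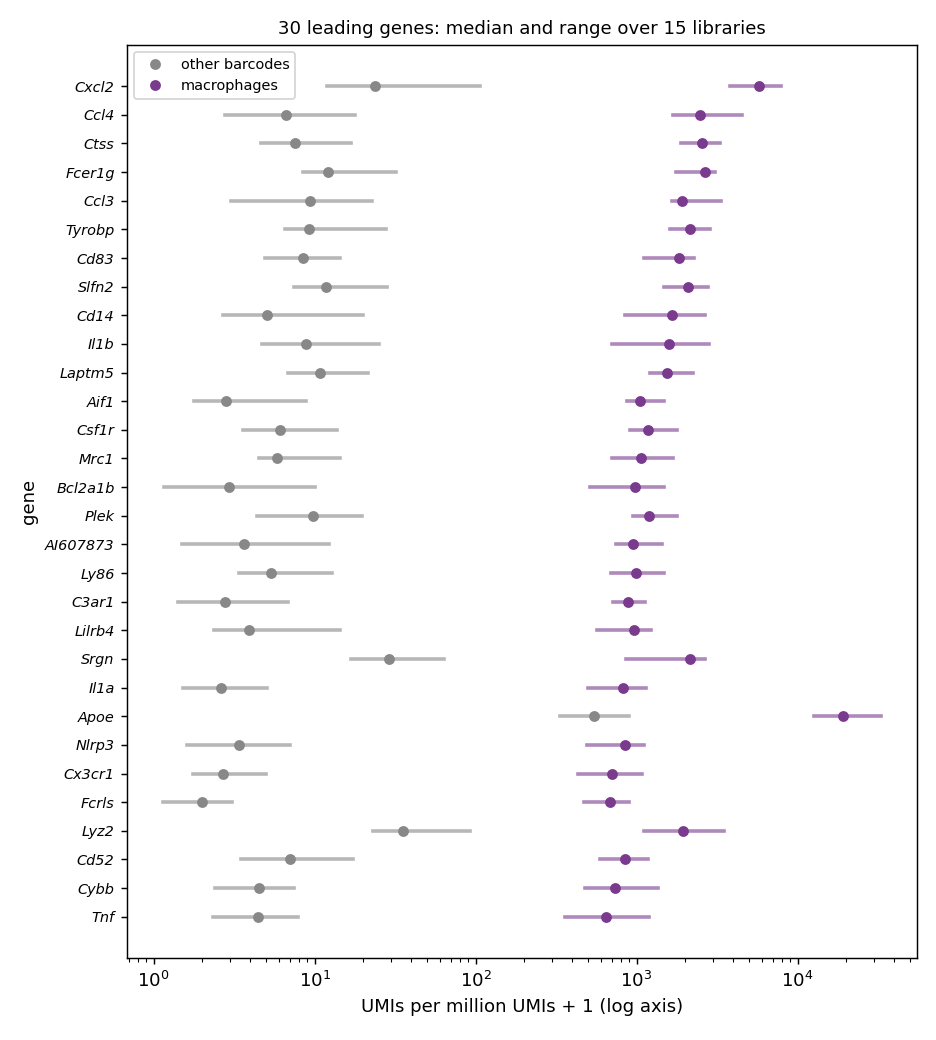
Levels of the 30 leading genes in macrophages (purple) and in all other barcodes (grey), as CPM plus 1 on a log axis; points are the median and lines the range over 15 libraries. In none of the 30 do the macrophage and other ranges overlap, and Apoe has the highest level in both.

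Transcripts that respond to handling of tissue stood beside these cytokine genes. The 17 immediate early genes summed to 12087 CPM in the pooled macrophages and 4913 CPM in the pooled other barcodes. Of the 17, 8 were at least 2-fold higher in macrophages, against 5.96% of all 16809 genes. Among the 1456 genes read in at least 20% of macrophages, 499 were. Zfp36, which destabilises cytokine messages, had 1332 CPM against 198, Junb 1492 against 273 and Atf3 1641 against 388. Fos (1073 against 707), Jun (513 against 610) and Egr1 (570 against 617) differed less. Of 10 heat shock genes, 0 were at least 2-fold higher and 2 (Hspd1 and Hspb1) at least 2-fold lower. Over all genes 7.57% were lower. The part of dissociation in the chemokine and cytokine levels was not tested.

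Lysosomal and iron genes were also mostly higher. Of 18 lysosomal genes, 15 were at least 2-fold higher in macrophages and 0 lower. As the background of the counts in this paragraph, 5.96% of all 16809 genes were at least 2-fold higher. Among the 1456 genes read in at least 20% of macrophages, 499 were. Ctsb had 5203 CPM against 317, Lgmn 2094 against 96.3, Ctsd 1847 against 257 and Npc2 1509 against 460. Of 10 iron and haem genes, 7 were higher: the ferritin heavy chain gene Fth1 had 13703 CPM against 1821, the haem-degrading Hmox1 656 against 22.2, the iron exporter gene Slc40a1 206 against 7.53, and Slc11a1, an iron transporter of phagosomes, 311 against 1.39. Of 13 scavenger and engulfment receptors, 10 were higher, among them Mrc1, Trem2, Stab1 (559 against 31.0) and the Fc receptor gene Fcgr3 (558 CPM). Of 13 interferon response genes, 10 were at least 2-fold higher, among them Ifi204 at 435 CPM against 1.52. Ifitm2, at 476 against 439 CPM, was not among the 10. The complement receptors C3ar1 (872 against 1.82) and C5ar1 (482 against 1.18) were read with the C1q genes.

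Genes of resident macrophages were only in part present. Of 15 genes of the list, 13 were in the table and 9 were at least 2-fold higher in macrophages than in the rest. That held for 5.96% of all 16809 genes and for 499 of the 1456 read in at least 20% of macrophages. Pf4, a platelet chemokine that resident macrophages also make, was read in 60.1% of macrophages with 983 to 2888 CPM by library. Mrc1 was read in 60.3% (707 to 1683 CPM), F13a1, coagulation factor XIII, in 35.0% (288 to 1012 CPM), Stab1 in 49.4% and Lyve1, the hyaluronan receptor, in 21.9% (interval 19.1 to 24.9%). Folr2 was read in 14.04%, Timd4 in 1.85% (interval 1.11 to 3.09%) and Cd163 in 0.530% (interval 0.206 to 1.35%). Lyve1 was read in 1.16% of the other barcodes and 0.108% of the cardiomyocyte barcodes, whose median was 1257 UMIs. Igf1, a growth factor gene of resident macrophages, had 405 CPM against 201 in the rest, a mean log2 ratio of 0.93. Library means of Igf1 in macrophages were 399 CPM in WT and 411 in KO. They were 375 and 382 CPM in the 26097 other barcodes with under 2% cardiomyocyte UMIs and 0 C1q UMIs, so the excess was small there. All intervals here cover counting error only.

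Monocyte genes marked a minority. Of 9 monocyte genes in the table, 3 were at least 2-fold higher: Lgals3 (27.9% of macrophages), Plac8 (7.28%) and Ccr2, the receptor that brings monocytes out of the marrow (9.27%, interval 7.40 to 11.6%). Another 2 of the 9 were at least 2-fold lower, and the median log2 ratio of the list was 0.13. Over all 16809 genes 5.96% were higher and 7.57% lower. Among the 1456 genes read in at least 20% of macrophages 499 were higher, a share near 3 of 9. Ccr2 was read in 0.219% of the other barcodes. Ly6c2 was read in 0.265% of macrophages. By library, 2.04 to 25% of macrophages had a Ccr2 UMI, and the highest share was in KO replicate 1. The 70 macrophages with Ccr2 were deeper than the rest (median of 2499.5 UMIs), and the part of depth in this share was not tested.

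Antigen-presentation genes of class I were broadly high and those of class II were not. B2m had 5020 CPM against 523, H2-D1 1326 against 50.9 and H2-K1 998 against 24.5, and 6 of 8 class I genes were at least 2-fold higher. Of 6 class II genes, 2 were: Cd74, the invariant chain, and H2-DMa. Over all 16809 genes 5.96% were at least 2-fold higher. Among the 1456 genes read in at least 20% of macrophages, 499 were. Cd74 was read in 20.9% of macrophages (interval 18.2 to 24.0%), with 125 to 499 CPM by library, and in 0.509% of the other barcodes. The classical chains were rare. H2-Aa was read in 1.19% of macrophages (interval 0.628 to 2.25%), H2-Ab1 in 1.06% (0.538 to 2.08%) and H2-Eb1 in 0.397% (0.135 to 1.16%). In the other barcodes H2-Ab1 was read in 2.08% and H2-Eb1 in 0.505%, so in macrophages neither was more frequent than outside them. H2-Aa went the other way, with 0.205% of the other barcodes (interval 0.169 to 0.249%).

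Lyve1 and Ccr2 transcripts were rarely read in the same macrophage. Lyve1 was read in 165, Ccr2 in 70 and both in 1. The share with Lyve1 was 13.8 to 41.0% by library, and highest in WT replicate 4. The Lyve1-positive cells were compared with the 590 others as a description, on a split chosen after the data were seen, with no test. The median depth was 1680 UMIs with Lyve1 and 1612 without. Of 1465 genes read in at least 20% of macrophages, 17 (1.16%) were at least 2-fold higher with Lyve1 and 29 (1.98%) at least 2-fold lower, on the log2 scale after 20 CPM was added.

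The genes higher with Lyve1 included 5 of the resident list and several secreted factors. Of the 6 resident genes read widely enough, Lyve1 aside, 5 were 2-fold higher: F13a1, Pf4, Mrc1, Stab1 and Gas6, the ligand of the engulfment receptors. F13a1 had 1844 CPM with Lyve1 and 257 without, a log2 ratio of 2.75, and was higher in 15 of 15 libraries. Pf4 had 4323 and 919 CPM (2.21) and Mrc1 2710 and 739 CPM (1.85), each higher in 15 of 15. Ednrb, the endothelin B receptor gene (1106 and 242 CPM), Ltc4s, which makes leukotriene C4 (385 and 78.3), and Fcgrt, the neonatal Fc receptor gene (752 and 258), were also higher in 15 of 15 libraries. Others included the monocyte chemoattractants Ccl7 and Ccl2 (log2 ratios of 1.92 and 1.69, higher in 14 and 13), Bmp2 (1.43), Igfbp4 (1.43), Dab2 (1.37), Nrp1 (1.12), Twf1 (1.05) and the transcription factor gene Maf (1.05). Folr2, below the detection limit set for the count, had 268 CPM with Lyve1 and 46.2 without.

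The genes lower with Lyve1 included Cd52, a surface glycoprotein, with 199 CPM against 1045 (-2.28), and Lgals3, galectin-3, with 145 against 637 (-1.99), both lower in 15 of 15 libraries. Cxcl16 (111 and 383 CPM), Rgs1 (279 and 815), Gngt2 (45.6 and 161), Tgm2 (71.2 and 223), Mpeg1 (296 and 647), Cd9 (125 and 323) and Cd74 (91.2 and 284) were likewise lower in 15 of 15. Thbs1 had 103 against 515 CPM and was lower in 14. Il1b had 635 against 2105 and was lower in 13. The other leading cytokine and chemokine genes were not among the 46 genes of the split. Of these, Il1a, at 476 against 961 CPM, fell just short of the cut after 20 CPM was added. The haemoglobin gene Hbb-y, at 556 and 1517 CPM, was lower in 8 libraries and higher in 6. Thinning to 1000 UMIs kept 556 macrophages, set aside 199 shallower ones, and the split was made anew on the thinned Lyve1 counts. The count then rose from 46 to 71, of which 38 were among the 46 with the same direction.

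**Figure D2:**
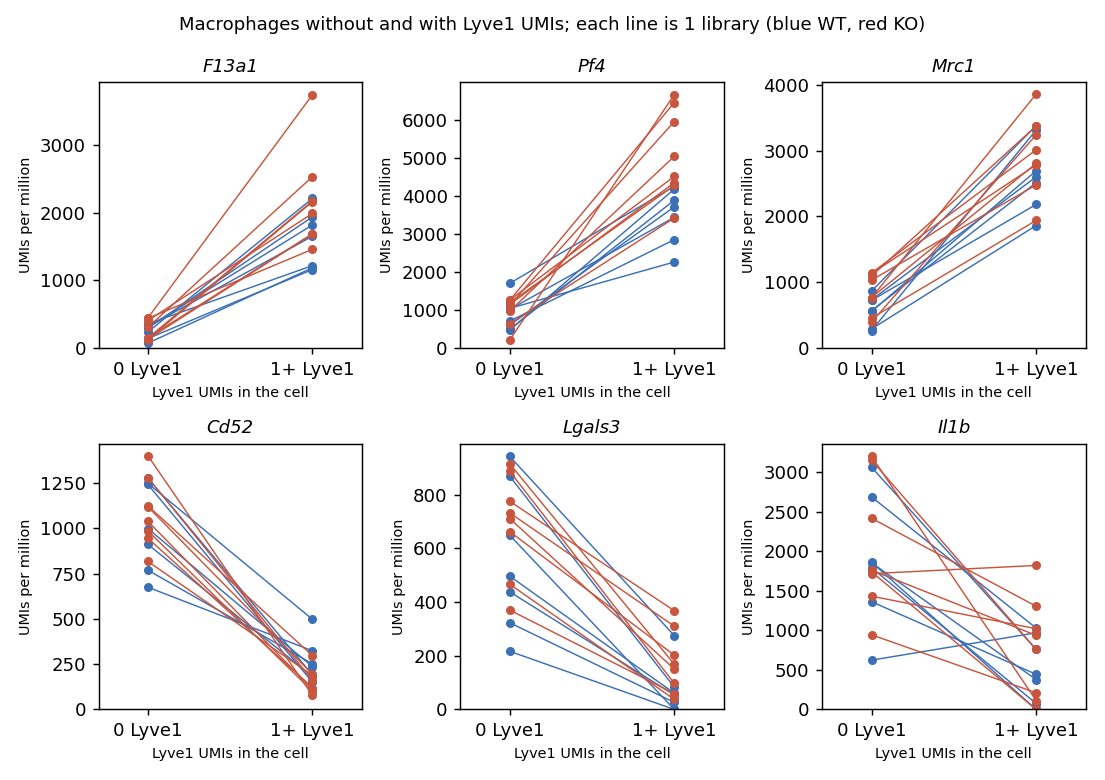
CPM of 6 genes in macrophages without Lyve1 UMIs and with at least 1, where each line is 1 library (blue WT, red KO). F13a1, Pf4 and Mrc1 rise and Cd52 and Lgals3 fall along all 15 lines; Il1b falls along 13.

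The 70 macrophages with Ccr2 had 600 CPM of Cd74, against 182 in the macrophages without it, and 13.7 CPM of Folr2 against 109. Other transcripts moved with this group: C1qa, of the rule, was at 843 CPM against 2063, the haemoglobin gene Hbb-y at 4035 against 858, and S100a8 at 36.6 against 0, all from 1 cell. Their part in these differences was not tested. Cd74 was at 284 CPM (344 UMIs) in the 590 macrophages without Lyve1 and 91.2 CPM (32 UMIs) in the 165 with it.

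Mitosis transcripts were read in macrophages less often than in the rest of the heart, by the share of barcodes with at least 2 UMIs of 25 mitosis genes. The share counts transcripts, which free RNA can also supply, and not dividing cells. After each barcode was thinned to 1000 UMIs, which left 556 macrophages and set aside 199 shallower ones, the share was 15 to 62.9% by library in macrophages (median 23.3%) and 30.1 to 44.7% in the other barcodes (median 32.8%). Without thinning the medians were 30.6% and 44.4%. The mean was 26.9% ± 11.7 in macrophages and 34.5% ± 4.82 in the others (SD, n = 15 libraries). Macrophages had the lower share in 13 of 15 libraries, by 7.64 percentage points on average (SD 10.3, two-sided exact sign-flip permutation test, p = 0.0153, n = 15). WT replicate 3 had the highest macrophage share, 62.9%. WT replicate 3 and KO replicate 8 were the 2 libraries in which macrophages exceeded the others. Without WT replicate 3 the difference was 9.63 percentage points in the same direction (p = 0.000488, exact). Against only the 26097 other barcodes with under 2% cardiomyocyte UMIs and 0 C1q UMIs it was 4.43 points with p = 0.122, and with at least 1 mitosis UMI it was 4.17 points with p = 0.157, both by the exact sign-flip test, so the call does not hold there. With libraries pooled, the share was 27.0% in macrophages, 14.2% in cardiomyocyte barcodes and 30.9% in 5904 thinned barcodes with at least 3 UMIs of 10 endothelial genes.

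The mitosis genes were read at modest levels in macrophages. Top2a, which untangles DNA before division, had 236 CPM in the pooled macrophages and 333 CPM in the others, Mki67 221 and 184, Cenpa 205 and 236, and Birc5 158 and 220. Of the 25 genes, 0 were 2-fold higher and 6 were 2-fold lower, among them Ube2c, Prc1 and Cenpf. Over all 16809 genes the shares were 5.96% and 7.57%. The share with at least 2 UMIs of 22 DNA replication genes was 27.8% ± 8.35 in macrophages and 39.2% ± 3.01 in the others (SD, n = 15), not tested.

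**Figure D3:**
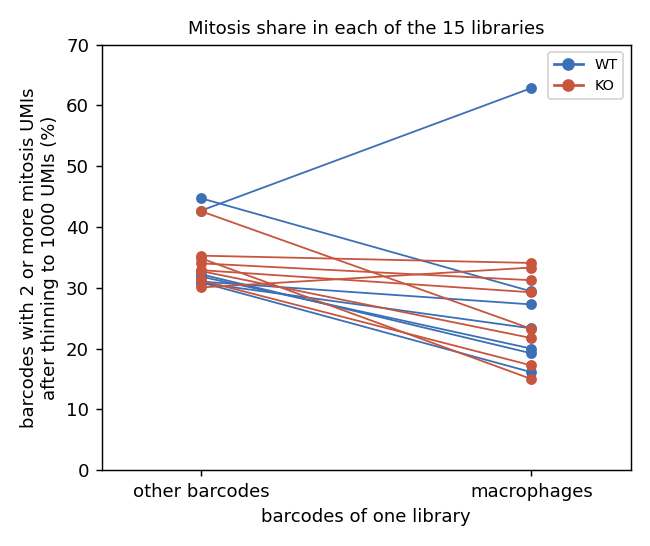
Percent of barcodes with at least 2 UMIs of the 25 mitosis genes after thinning to 1000 UMIs, in other barcodes and in macrophages; each line is 1 of 15 libraries (blue WT, red KO). 13 lines fall, and WT replicate 3 rises to 62.9%.

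The genotypes were compared over libraries for 3 shares. Macrophages made up 1.23, 1.88, 1.11, 1.46, 1.497, 1.38 and 1.57% of the barcodes with 300 genes in WT replicates 1 to 7, and 1.05, 1.37, 1.27, 2.51, 1.33, 1.43, 1.66 and 1.60% in KO replicates 1 to 8. The groups overlap, and KO replicate 4 stands above the rest. The means were 1.45% ± 0.249 and 1.53% ± 0.441 (SD, n = 7 and 8, two-sided exact permutation p = 0.717, adjusted over 3 shares 0.776). The mitosis share was 28.3% ± 15.9 in WT and 25.6% ± 7.37 in KO macrophages (exact permutation p = 0.776, adjusted 0.776). The share of thinned macrophages with a UMI of Cd74, H2-Aa, H2-Ab1 or H2-Eb1 was 13.5% ± 5.50 in WT and 14.4% ± 6.56 in KO libraries (exact permutation p = 0.772, adjusted 0.776). It is largely the share with Cd74: without thinning, 163 of 755 macrophages had any of the 4 genes and 158 had Cd74. With libraries pooled, it was 1.52% of all other thinned barcodes, 0.390% of endothelial and 0.187% of cardiomyocyte barcodes. None of the 3 shares differed beyond the spread between libraries. In this design a share of cells says nothing on their number in the heart.

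**Figure D4:**
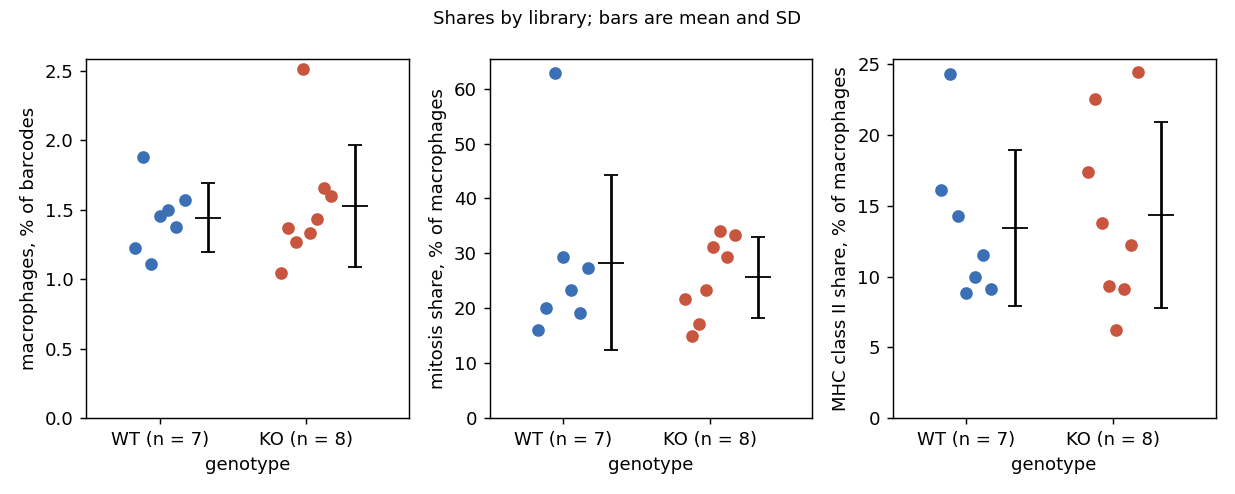
Macrophages as percent of barcodes, mitosis share and MHC class II share (percent of macrophages thinned to 1000 UMIs) by library, 7 WT (blue) and 8 KO (red), with mean and SD. The class II share is largely the share with Cd74. The WT and KO points overlap in all 3 panels; KO replicate 4 (2.51%) and WT replicate 3 (62.9%) stand apart in the first and second.

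Between genotypes, few genes of the macrophages changed, and most of those were transcripts of cardiomyocytes. Counts were summed over the macrophages of each library and tested with edgeR for 2036 genes. Of these, 1 rose in KO (0.0491%) and 7 fell (0.344%), with an adjusted p under 0.05 by the Benjamini-Hochberg method, and 220 had an unadjusted p under 0.05. The 7 that fell were Nppa, Tnni1, Myl3, Apoc1, Actc1, Tnnt2 and Myh7, and the 1 that rose was Hspa1a. All but Apoc1 and Hspa1a are transcripts of heart muscle cells, and Tnni1, Actc1 and Tnnt2 were among the genes that chose the barcodes. The values of these 3 are therefore given as a description, and nothing is read from their calls. Outside the rule 5 genes remain: Hspa1a, Nppa, Myl3, Apoc1 and Myh7.

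Nppa, the atrial natriuretic peptide gene (chromosome 4, 148000722 to 148002079), was at 170, 490, 406, 405, 240, 265 and 193 CPM in WT and 108, 107, 30.4, 69.8, 112, 142, 57.1 and 86.4 CPM in KO macrophages. These span 170 to 490 CPM in WT and 30.4 to 142 CPM in KO. The log2 fold change was -1.88 (SE 0.27, n = 7 and 8, edgeR adjusted p = 0.00041). Myl3, a ventricular myosin light chain, fell from 345 ± 119 to 161 ± 45.1 CPM and Myh7, a myosin heavy chain, from 274 ± 134 to 111 ± 47.7 CPM (SD, n = 7 and 8). Tnnt2, cardiac troponin T and of the rule, was at 753 ± 220 and 418 ± 94.2 CPM.

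The same transcripts were lower in KO outside the macrophages. In the 26097 barcodes with under 2% cardiomyocyte UMIs and 0 C1q UMIs, Nppa was 274 ± 78.5 CPM in WT and 116 ± 34.1 in KO, Myl3 325 ± 124 and 161 ± 43.4, and Tnnt2 861 ± 262 and 536 ± 120 (SD, n = 7 and 8, not tested). The 17 cardiomyocyte genes together were at 3496 to 5720 CPM in WT and 1726 to 3270 CPM in KO macrophages, and at 2748 to 6340 CPM and 2005 to 4076 CPM in those other barcodes. The sum of the 10 genes outside the rule was 1374 to 2350 CPM in WT and 649 to 1142 CPM in KO macrophages. Singly, the WT and KO values of Myl3, Myh7, Myl2 and Tnni3, of these 10, overlapped. The part of free cardiomyocyte RNA in these calls was not tested.

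Hspa1a, an inducible heat shock protein gene (chromosome 17, 34969190 to 34972156), was at 247, 220, 113, 155, 120, 46.8 and 128 CPM in WT and 417, 360, 472, 724, 624, 338, 185 and 432 CPM in KO macrophages. KO replicate 7 lies among the WT values, and the other 7 KO libraries above them. The log2 fold change was 1.499 (SE 0.28, n = 7 and 8, edgeR adjusted p = 0.0125). Of 8 heat shock genes tested, 1 rose, Hspa1a itself, against 1 of all 2036 genes tested. All 8 had a fold change above 0, against 994 of the 2036, with a median of 0.44 against -0.01. In the other barcodes named above Hspa1a was at 131 ± 142 CPM in WT and 436 ± 188 CPM in KO, so a difference of the same direction stood outside macrophages. Its near-identical neighbour Hspa1b is counted apart and could share reads with it.

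Apoc1, an apolipoprotein gene of the Apoe cluster, was at 339, 750, 481, 603, 1211, 1077 and 501 CPM in WT and 283, 515, 457, 192, 235, 222, 221 and 310 CPM in KO macrophages. The highest WT values are in replicates 5 and 6, and WT replicates 1, 3 and 7 lie among the KO values. The log2 fold change was -1.27 (SE 0.25, n = 7 and 8, edgeR adjusted p = 0.0146). In the other barcodes named above it was 22.2 ± 5.3 CPM in WT and 16.2 ± 6.0 CPM in KO, a far lower level than in macrophages. Apoe, its neighbour, had a fold change of -0.42 (SE 0.17, adjusted p = 0.369). Without WT replicate 5 the fold change of Apoc1 was -1.09 (adjusted p = 0.0551). When each litter was 1 sum it was -1.35 (adjusted p = 0.0885). Of the 8 genes, Nppa (-1.87, adjusted p = 0.0115) and Hspa1a (1.57, adjusted p = 0.0277) passed with sums per litter, and the others did not (0.0885 to 0.674).

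The shared flow cell holds 1 WT library, replicate 5, which was also in the fit that called the 8 genes. It lay below all 8 KO libraries for Hspa1a and above them for the other 7, which is a description and no separate evidence. With flow cell as a covariate the genotype difference rests on that 1 WT library, the one with the highest Apoc1 value. There edgeR called 2 genes, of which 1 was among the 8, Apoc1 (-2.04, adjusted p = 0.0445). Nppa (-1.44) and Hspa1a (1.84) no longer passed (adjusted p = 0.518 for both). Without WT replicates 1 to 4, 8 genes passed, 3 of them among those above, and the balance turned to 6 higher and 2 lower. Without macrophages that held 2 or more UMIs of endothelial, mesenchymal, epicardial, mural or erythroid genes, 240 macrophages were left. Of the libraries, 11 still held at least 10 and were fitted, WT replicates 1, 2 and 5 and the 8 KO libraries. There, 0 of 479 genes passed by edgeR (40 at an unadjusted p under 0.05), with fold changes of -1.07 for Apoc1 and 1.59 for Hspa1a (adjusted p = 0.498 for both). With the erythroid genes set aside in that rule, 515 macrophages in all 15 libraries were left and 9 of 1128 genes passed, 5 of them among the 8: Nppa (-1.92), Hspa1a (2.12), Myl3 (-1.61), Apoc1 (-1.54) and Tnnt2 (-1.08). DESeq2, run on all macrophages, called 14.

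**Figure D5:**
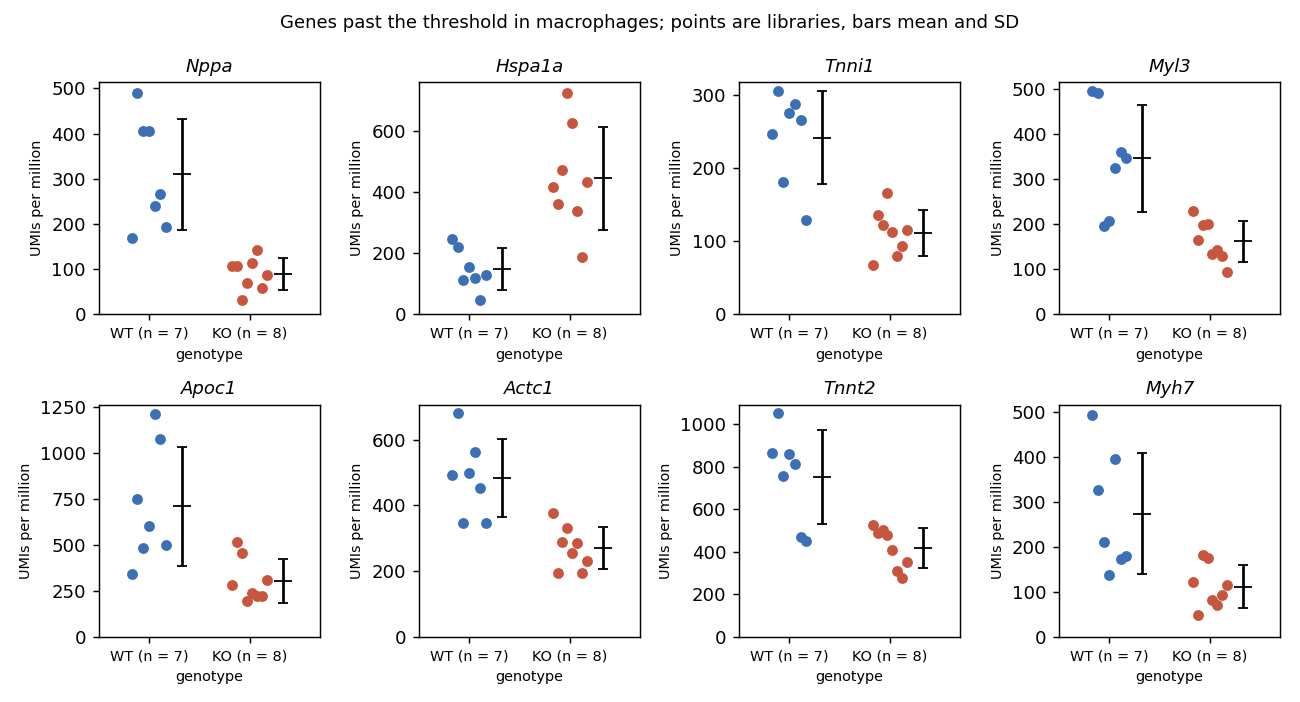
CPM of the 8 genes past the threshold in macrophages of 7 WT (blue) and 8 KO (red) libraries, with mean and SD. Nppa spans 170 to 490 CPM in WT and 30.4 to 142 CPM in KO libraries. Hspa1a is the 1 gene that is higher in KO.

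No gene of the macrophage lists passed the test between genotypes, where 0.0491% and 0.344% of all genes tested rose and fell, so counts of 0 in lists of this length are near the background. Among 22 identity genes tested, 0 rose and 0 fell, with a median log2 fold change of -0.06 (all genes tested, -0.01) and fold changes between -0.28 and 0.18. The same held for 8 resident genes (median 0.15, -0.48 to 0.72), 15 chemokine and cytokine genes (0.02, -0.57 to 0.53), 17 lysosomal genes (-0.08, -0.40 to 0.36), 9 interferon response genes (-0.24, -0.68 to 0.03) and 16 immediate early genes (-0.14, -0.49 to 0.75). Csf1r was 1277 ± 255 and 1154 ± 134 (log2 fold change -0.18, SE 0.14), and Cxcl2 5816 ± 1246 and 6238 ± 918 (0.06, SE 0.14; SD, n = 7 and 8). For the genes of this size the standard errors limit what could have been seen, so values that missed the threshold are not shown to be equal. Between the 4 tm4b and the 4 tm4a libraries, a comparison added after the data were seen, edgeR called 0 of 2127 genes (0%), with 255 at an unadjusted p under 0.05 and a lowest adjusted p of 0.0511. Each allele holds its own litters, so allele and litter cannot be told apart.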

How the data were processed

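The members and gene lists were chosen with earlier results of these data known. The authors deposited 1 joined table of whole-heart Drop-seq with whole UMI counts for each gene in each barcode, not scaled. The submitters' processing notes name mm10, Seurat 2.1 and bcl2fastq 2.17 with no role for each. The shallowest deposited barcode has 251 genes and the highest mitochondrial share is 10%. The description of WT replicate 4 carries another replicate number than its title, and the title was used. No doublet caller was run.

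UMI counts of macrophages were summed per library, normalized with TMM factors after filterByExpr, and tested with edgeR 4.0.16 (quasi-likelihood, R 4.3.3, Benjamini-Hochberg, threshold 0.05). The script was checked on simulated counts. Shares were tested by exact permutation over libraries. The mitosis and class II shares were taken after thinning to 1000 UMIs, and the macrophage share without thinning. Against other barcodes, log2 ratios with 20 CPM added were averaged over libraries, with no test. Named there are the 30 largest ratios among genes read in at least 20% of macrophages, list members by count and, between genotypes, all genes past the threshold. In the Lyve1 split, genes are named by a 2-fold ratio. DESeq2 1.42.0, other filters, thinning, members and left-out libraries were alternatives. Gene positions are from GENCODE M21. Results for some genes are not reported here.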

Additional observations from a re-analysis of the deposited data

Results flagged for a closer look

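Within a genotype, the highest or lowest library was set against the spread of the others for the 3 shares, the median depth of macrophages, the 30 leading genes and the 8 genes past the threshold. Of 84 groups of libraries, 4 had a library far from the others, and chance gives about 1 in 20. KO replicate 4 had a macrophage share of 2.51%, with the other KO libraries at 1.05 to 1.66%. WT replicate 3 had a mitosis share of 62.9%, with the other WT libraries at 16.1 to 29.4%. KO replicate 8 had a median of 2766 UMIs per macrophage, with the other KO libraries at 1247 to 1637. Plek, a signalling substrate of protein kinase C, was at 1636 CPM in WT replicate 1, with the other WT libraries at 950 to 1195 CPM.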

How the results depend on the processing

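The limits of the genotype comparison are the 36 to 85 macrophages per library and litters that never hold both genotypes. Of 31 alternatives, 22 gave a count within 1.5 times of the 8 genes. The exceptions were DESeq2 with 14, no filter on low counts with 33 (17 higher and 16 lower), flow cell as a covariate with 2, sums per litter with 2 (Nppa and Hspa1a), tm4a libraries against WT with 2 and macrophages without 2 UMIs of other cell types with 0, in 11 libraries. With the erythroid genes set aside in that rule, an alternative chosen after seeing the data, the count was 9 in 15 libraries, 5 of them among the 8. Leaving out 1 library gave 4 to 10 genes, with 4 without WT replicate 5 and 5 without WT replicate 2. With the replicate number as a block, which leaves out KO replicate 8, 3 genes passed (Hspa1a, Nppa and Tnnt2). The numbers share no litter, same-numbered libraries correlated by -0.250 to 0.0935 and no library correlated best with its own number. No alternative reversed any of the 8 genes.

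The 3 shares changed sign in settings in which none passed the threshold. The macrophage share difference, 0.0835 percentage points, was -0.0272 as means per litter and -0.0571 (without KO replicate 4) to 0.156 when 1 library was left out. The mitosis share difference, -2.67, was -4.70 to 3.08 (without WT replicate 3) when 1 library was left out, 2.37 without WT replicates 1 to 4 and 3.67 for tm4b alone. The class II share difference, 0.920, was -0.519 to 2.73 when 1 library was left out (below 0 without KO replicate 2 or 8), -0.519 with the replicate block, -0.455 for tm4b alone and -1.16 with at least 2 UMIs. The lower mitosis share of macrophages was -4.43 points against barcodes without cardiomyocyte or C1q signal and -4.17 with at least 1 UMI, neither past the threshold, and -9.63 to -6.77 when 1 library was left out. The Lyve1 split gave 71 genes after thinning and 56 with at least 2 Lyve1 UMIs, in place of 46.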
